A study of Homo sapiens and Mus musculus with 24 samples.

Results

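Hemogen peaks were set against peaks of acetylated histone H3 lysine 27 (H3K27ac) in wild-type (WT) mouse fetal liver. Each of 2 hemogen libraries was compared with each of 2 H3K27ac libraries, so 4 of the 24 samples of the series carried the comparison, in 4 library pairs. After peaks off the 19 autosomes and chromosome X were left out, 53055 peaks remained for hemogen library 1 and 42866 for library 2. For H3K27ac 69882 and 45545 peaks remained. All libraries came from livers of embryos at day 14.5, labelled WT. Hemogen was precipitated with an antibody to the HA tag (ab9110) and acetylated histone with antibody ab4729. A pair of WT BRG1 libraries (antibody ab110641), with 26329 and 21165 peaks, served for comparison. The other libraries (input, hemogen knockout BRG1 and human K562 cells) were not used.

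The labels do not say how the HA tag was introduced, and no HA control from untagged tissue was used here. They also do not say whether libraries 1 and 2 came from separate embryos. The spread given below is therefore between libraries and may be technical. Fetal liver at this stage is a mixed tissue in which most blood formation takes place, and peak lists do not resolve its cell types. The lists name no genes, and an annotation of their genome build was not used here, so regions are given by position.

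Hemogen is a regulator of blood cell formation that resides in the nucleus, found above all in the erythroid lineage. H3K27ac is laid down by the acetyltransferases p300 and CBP on nucleosomes of active promoters and enhancers. The DNA that transcription factors hold at such elements is often depleted of nucleosomes, so the mark typically lies on the nucleosomes to either side. BRG1 powers the SWI/SNF remodelling complexes, which slide or evict nucleosomes. A hemogen summit, the position of highest signal in a peak, can thus lie inside an acetylated block or between acetylated flanks, and both arrangements were counted.

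Across the 4 library pairs 34.5% ± 4.98 of hemogen peaks (SD over 4 pairs that share libraries) overlapped an H3K27ac peak by at least 1 bp. Values are given in the order hemogen 1 with H3K27ac 1, hemogen 1 with H3K27ac 2, hemogen 2 with H3K27ac 1, and hemogen 2 with H3K27ac 2. The shares were 35.2%, 28.1%, 40.2% and 34.3%, or 18696, 14903, 17240 and 14704 peaks. The corresponding 95% Wilson intervals were 34.8 to 35.6%, 27.7 to 28.5%, 39.8 to 40.7% and 33.9 to 34.8%, and cover counting error only. The spread between pairs was thus wider than the counting error. For either hemogen library the share was higher against the longer H3K27ac list, and for either H3K27ac list it was higher for the shorter hemogen list.

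Read from the acetylation side, 32.5%, 39.5%, 27.8% and 37.1% of H3K27ac peaks overlapped a hemogen peak (34.2% ± 5.17, SD over 4 pairs). Acetylated peaks that met hemogen were wider, with median widths of 370.5, 353, 386 and 359 bp against 254, 255, 257 and 255 bp for those without. Of the widest 20% of H3K27ac peaks, 60.7%, 64.7%, 55.0% and 62.5% overlapped hemogen. Of the narrowest 20% it was 17.4%, 24.3%, 13.7% and 21.6%. A wider peak has more bases with which to overlap, and the part of width in this difference was not tested. By fold the relation was not monotonic: the second-weakest 20% of H3K27ac peaks overlapped hemogen less often than the weakest 20% in all 4 pairs (25.5% against 26.9% for hemogen 1 with H3K27ac 1). The strongest 20% by fold reached 51.6%, 52.6%, 45.2% and 51.6%.

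Hemogen summits fell into 4 classes. The summit base lay inside an H3K27ac peak (acetylated centre) for 20.9%, 15.2%, 24.3% and 19.9% of all hemogen peaks, with a mean of 20.0%. The summit lay outside, with an H3K27ac peak edge within 1 kb on both sides (acetylated flanks only), for 8.03%, 6.03%, 9.29% and 7.14%. Acetylated centres were therefore 2.60, 2.52, 2.61 and 2.78 times as frequent as acetylated flanks alone. An H3K27ac peak lay within 1 kb on 1 side only for 23.6%, 21.4%, 26.2% and 25.0%, with the left side taking between 49.7% and 50.2% of these. No H3K27ac peak lay within 1 kb of 47.5%, 57.4%, 40.3% and 48.0% of summits, the most frequent class in every pair. For 20.4%, 29.4%, 16.4% and 23.3% of all hemogen summits the nearest acetylated peak was more than 10 kb away.

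**Figure D1:**
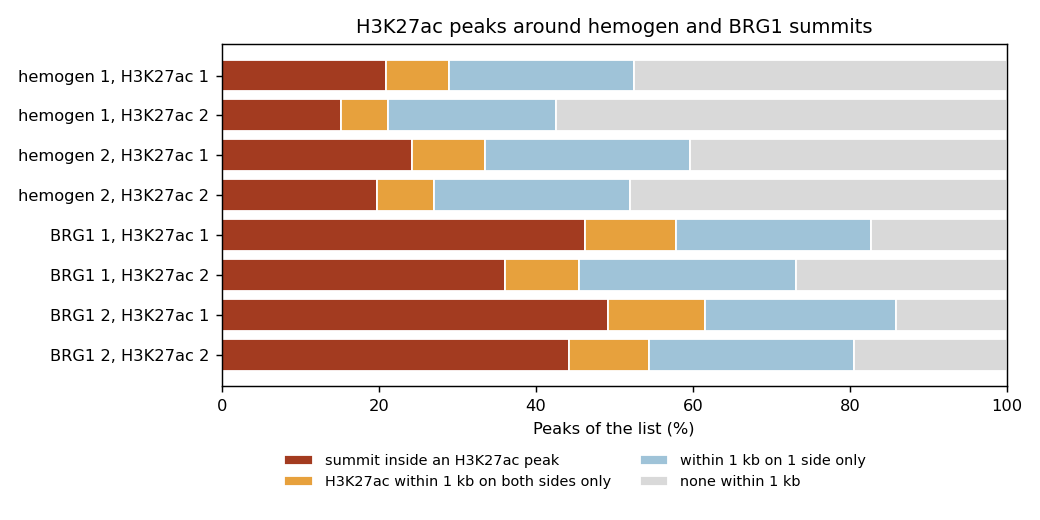
Each bar divides all peaks of 1 hemogen or BRG1 list (x axis, % of peaks) by where its summits lie relative to 1 H3K27ac list (y axis, library pair). Summits inside an H3K27ac peak took 15.2 to 24.3% of hemogen peaks and 36.0 to 49.3% of BRG1 peaks.

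Many overlaps were of a peak's shoulder and not of its summit: 14.3%, 12.9%, 16.0% and 14.5% of hemogen peaks overlapped H3K27ac while their summit lay outside it. Among overlapping peaks the hemogen and H3K27ac summits were a median of 193, 198, 200 and 190 bp apart. The same measure was 118 bp between the 2 hemogen libraries and 98 bp between the 2 H3K27ac libraries. Hemogen and BRG1 summits of overlapping peaks were 127 to 146 bp apart. The distance between hemogen and acetylation summits was thus larger in all 4 pairs than between libraries of 1 antibody. Within the H3K27ac peaks that held them, hemogen summits were spread almost evenly: the outermost 20% of positions took 18.6%, 18.2%, 19.2% and 18.8% of the summits and the innermost 20% took 20.8%, 20.7%, 19.5% and 19.1%.

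Where a summit had acetylation on both sides only, the gap between the flanking H3K27ac peaks had a median width of 699, 711, 698 and 704 bp, and the nearer edge lay 158, 158, 155 and 155 bp from the summit. A count of summits per Mb of sequence allows for the different extent of peaks and gaps. Inside H3K27ac peaks hemogen summits numbered 428, 478, 401 and 505 per Mb. In gaps of up to 200 bp between neighbouring H3K27ac peaks they numbered 340, 391, 336 and 351 per Mb, on 236 to 349 summits. The density was 261, 314, 247 and 304 per Mb in gaps of 500 to 1000 bp, and 9.60, 12.2, 6.79 and 8.68 per Mb in gaps over 20 kb. Inside peaks the density exceeded that of every class of gap in all 4 pairs.

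**Figure D2:**
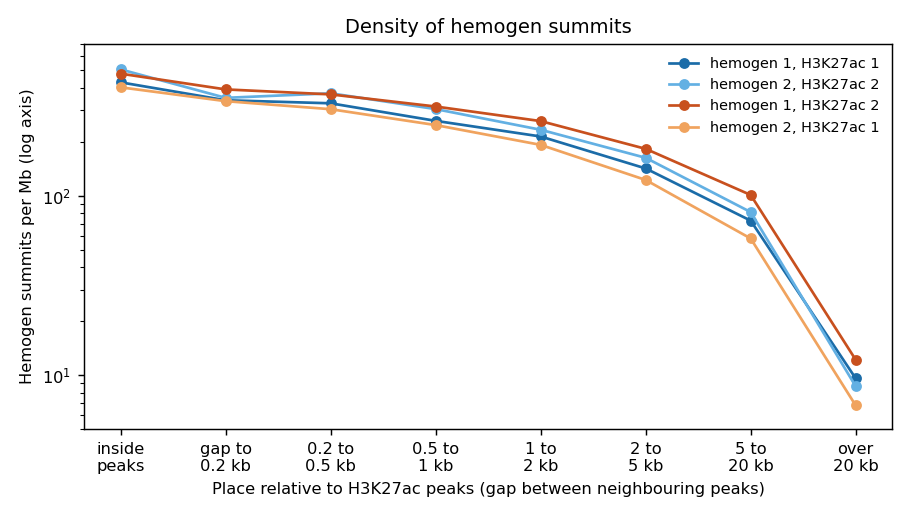
Hemogen summits per Mb (y axis, log scale) inside H3K27ac peaks and in gaps between neighbouring H3K27ac peaks of increasing width (x axis), with 1 line for each library pair. The density is highest inside peaks (401 to 505 per Mb) and lowest in gaps over 20 kb (6.79 to 12.2 per Mb).

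The class of a single summit depended on which H3K27ac list was read. Of hemogen 1 summits 66.8% had the same class against both lists, and of hemogen 2 summits 64.3%. Acetylated centres of the longer list remained centres in the other list for 51.9% and 56.8% of summits. Acetylated flanks did so for only 31.3% and 32.1%, and 19.1% and 21.7% of them were acetylated centres in the other list. In that direction summits without acetylation nearby were the most stable, at 89.9% and 86.0%. Against the shorter list 57.4% and 48.0% of all summits had this class. Read from the shorter list to the longer, 74.5% and 72.1% of summits without acetylation nearby kept their class. For centres the shares were 71.5% and 69.4%, and for flanked summits 41.7% and 41.8%. For single sites, flanked acetylation was thus the class least often found again in the other list, in either direction. It was also the smallest class, with 6.03% and 7.14% of all summits against the shorter list. Acetylated centres took 15.2% and 19.9% there. The kept shares do not allow for class size, so they do not order the classes by reproducibility.

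Peaks found in both hemogen lists overlapped acetylation more often than peaks of 1 list alone. The shares were 48.0% against 17.5%, 41.8% against 9.16%, 47.7% against 13.5%, and 40.1% against 13.8%. Replicated peaks were also wider (medians of 592 and 475 bp against 276 and 253 bp) and had higher fold values (4.52 and 4.26 against 3.74 and 3.802, the authors' values). The part of width or fold in this difference was not tested.

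The position of acetylation was next followed outward from the summit, as the percentage of positions at each distance that lay inside an H3K27ac peak. Over all hemogen peaks this coverage was highest at the summit itself in all 4 pairs and exceeded the highest value at any distance by 0.471, 0.201, 0.411 and 0.618 percentage points. It was 13.3%, 9.83%, 15.6% and 11.8% at 1 kb. At 50 kb it was 3.73%, 2.46%, 3.801% and 2.53%, so the summit value was 5.61, 6.17, 6.38 and 7.85 times the value far from the peaks. The average hemogen site thus showed no depletion of called acetylation at its centre.

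The strongest hemogen peaks differed from that average, in a pattern that was chosen for description after several cuts of strength had been seen. The strongest 1% by the authors' fold enrichment were 531 and 429 peaks, with folds of at least 9.91 and 9.26. They were wide, with median widths of 1888 and 1533 bp, and 80.2%, 69.5%, 70.4% and 67.8% of them overlapped H3K27ac. Their summit lay inside an H3K27ac peak in 31.8%, 15.1%, 18.2% and 23.5%, against 20.9%, 15.2%, 24.3% and 19.9% of all hemogen peaks. The central share was thus higher than over all peaks in some pairs and lower in others. Acetylated flanks only were seen in 21.8%, 20.3%, 21.9% and 17.5%. The share with acetylated flanks only was therefore 2.72, 3.37, 2.36 and 2.45 times that of all hemogen peaks.

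In these strongest peaks the coverage at the summit minus the highest value at any distance was -2.26, -10.5, -10.1 and 0.233 percentage points. The highest coverage lay 550 to 750 bp from the summit in 3 of the 4 pairs, and at the summit in hemogen 2 with H3K27ac 2. Both small values belong to libraries of the same number and both large ones to libraries of different number. Numbers are those of the sample titles; the peak names inside the hemogen lists carry 3 and 4 in place of 1 and 2. The mean was -1.01 over same-numbered pairs and -10.3 over other-numbered pairs. With the summit taken from the other hemogen library the differences were -2.26, -8.57, -7.11 and -1.52, and with the peak midpoint in place of the summit the mean moved from -5.68 to -1.79. It was -2.74 for the strongest 2% by fold and -0.48 for the strongest 5%, so the dip by fold was much smaller at wider cuts. The authors' group lists, of which the labels name 1 for both libraries of an antibody, gave the opposite sign when ranked by fold (2.10 points) and a dip when ranked by −log10 p (-5.68 points).

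Fold enrichment divides the signal at a summit by a local background, so a strong peak by fold can be one of low background. Height at the summit, in fragments, and the local background were recovered from the authors' fold and p-value for every peak, on the assumption stated under the processing. The strongest 1% by height had at least 51 and 64 fragments at the summit, against medians of 17 and 25 over all peaks. Of these, 91.9%, 85.7%, 91.4% and 85.8% overlapped H3K27ac. The summit lay inside an H3K27ac peak in 32.0%, 21.1%, 28.9% and 21.2%, and 37.3%, 37.9%, 41.3% and 39.2% had acetylated flanks only. At the flank limit of 1 kb, flanked acetylation was thus more frequent than central acetylation in all 4 pairs. This is the reverse of the order over all hemogen peaks. Other flank limits are not given for the ranking by height. For the strongest 1% by fold, a limit of 500 bp gave a mean both-flank share of 10.4% in place of 20.4%.

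Coverage around the tallest peaks was lower at the summit than at its highest by 16.3, 18.9, 20.7 and 19.7 percentage points. In hemogen 1 with H3K27ac 1 it was 32.0% at the summit, 41.6% at 200 bp, 48.3% at its highest, at 650 bp, and 38.3% at 2 kb. In hemogen 2 with H3K27ac 2 it was 21.2% at the summit, 34.4% at 200 bp, 40.9% at its highest, at 550 bp, and 29.7% at 2 kb. Same-numbered and other-numbered pairs did not separate by this ranking. Ranked by −log10 p the dips were 9.70, 16.2, 16.3 and 10.1 points, between those of the other rankings in each pair. By −log10 p the smaller dips were again those of the same-numbered pairs. Background is given in the scaled units of each list and not in fragments. In these units 1 fragment counts as 1 in hemogen 1 and as 0.7404 in hemogen 2. The median local background of the tallest 1% was 4.90 and 5.27, against 3.38 and 3.71 over all hemogen peaks. For the strongest 1% by fold it was 3.35 and 3.18. The part of the local background in these dips was not tested.

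**Figure D3:**
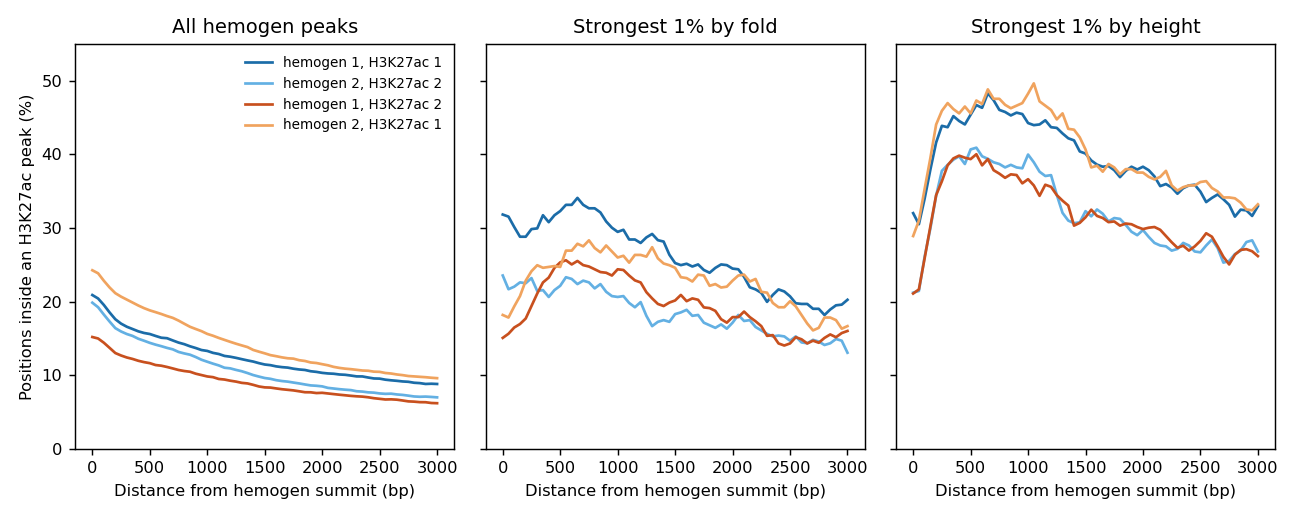
The percentage of positions inside an H3K27ac peak (y axis) against distance from the hemogen summit (x axis, bp, both sides together) for all hemogen peaks, the strongest 1% by fold and the strongest 1% by height, with 1 line for each library pair. Coverage over all peaks is highest at the summit, whereas the tallest peaks reach 40.02 to 49.7% at 550 to 1050 bp and 21.1 to 32.0% at the summit.

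Between these extremes the class shares changed gradually with height. In the lowest 20% of hemogen peaks by height 5.46%, 1.72%, 5.16% and 5.03% of summits lay inside H3K27ac. The share reached its maximum of 49.0%, 41.0%, 48.6% and 41.6% between percentiles 90 and 95. It was lower again in percentiles 98 to 99, at 38.6%, 32.8%, 36.1% and 24.2%. The share with acetylated flanks only was higher in each successive bin of height in all 4 pairs. Summits with no acetylation within 1 kb went from 76.9%, 87.3%, 72.6% and 78.1% in the lowest 20% to 8.66%, 14.5%, 5.83% and 12.6% in the tallest 1%.

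Ranked by fold, central acetylation was not monotonic at the lower end. The weakest 20% had 15.3%, 13.9%, 28.2% and 17.5% of summits inside H3K27ac, above the 14.4%, 10.23%, 21.3% and 16.5% of the next 20%. The ranking by height had no such reversal in any of the 4 pairs.

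**Figure D4:**
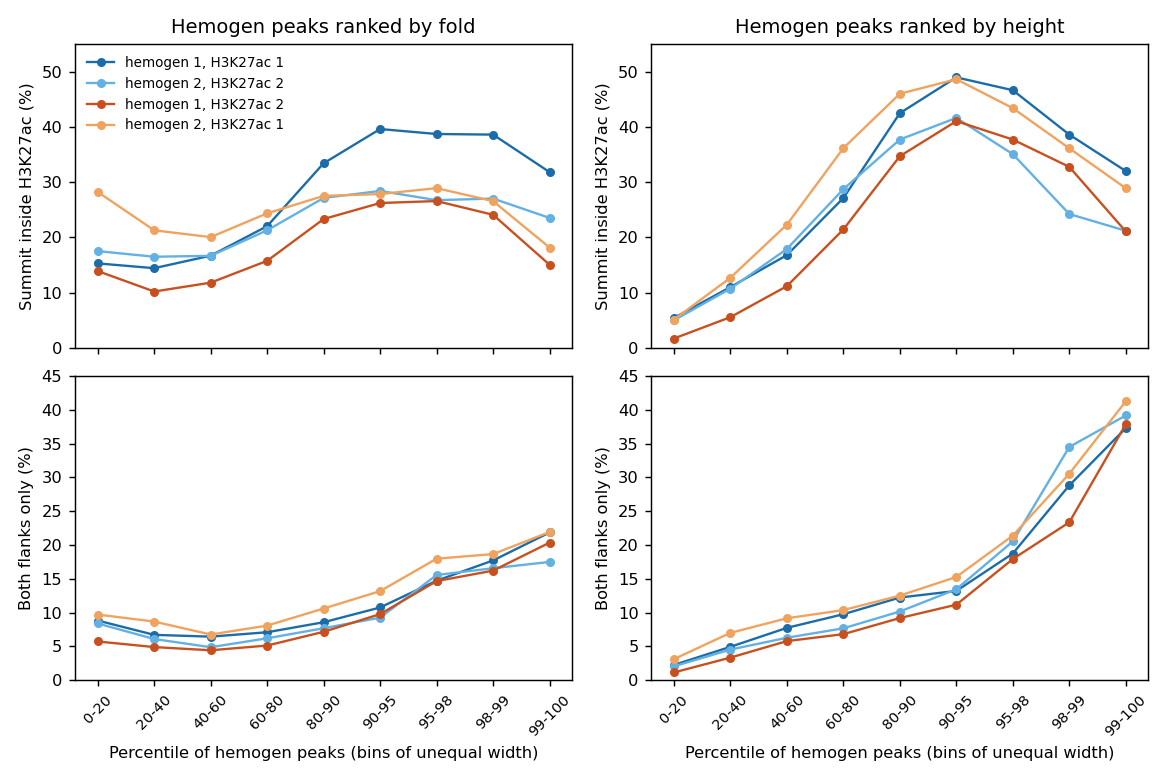
The share of hemogen summits inside an H3K27ac peak (upper panels, %) and with acetylated flanks only (lower panels, %) in percentile bins of hemogen peaks (x axis) ranked by fold (left) or height (right), with 1 line for each library pair. By height the share inside peaks is highest between percentiles 90 and 95 (41.0 to 49.0%) and the flank share ends at 37.3 to 41.3%.

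BRG1 summits lay inside H3K27ac more often than hemogen summits. For BRG1 library 1 the shares were 46.3% and 36.0% against H3K27ac lists 1 and 2, and for library 2 they were 49.3% and 44.2%. Averaged over both lists, 18.0% and 22.1% of summits of hemogen libraries 1 and 2 were inside, and 41.2% and 46.7% of summits of BRG1 libraries 1 and 2. The means were 20.0% ± 2.84 for hemogen and 44.0% ± 3.93 for BRG1 (SD, n = 2 libraries each), a difference of -23.9 percentage points. The groups did not overlap. An exact two-sided permutation test gave p = 0.333, the smallest that 2 against 2 libraries allow. Both factors were read against the same H3K27ac lists. With every list, H3K27ac included, trimmed to its strongest 21165 peaks by −log10 p, the shares were 19.0% ± 0.272 for hemogen and 31.2% ± 1.73 for BRG1 (SD, n = 2 libraries each), a difference of -12.2 points. With only the hemogen and BRG1 lists trimmed they were 28.5% ± 0.0267 and 45.6% ± 1.64, a difference of -17.1 points.

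The difference was larger among the strongest peaks, a comparison added with the data in view. Of the strongest 1% by fold, 22.2% ± 1.83 of hemogen summits and 76.6% ± 0.697 of BRG1 summits lay inside H3K27ac (SD, n = 2 libraries each). The difference was -54.5 points (exact two-sided permutation test, p = 0.333, again the smallest possible). Ranked by height, BRG1 summits were inside in 90.2%, 84.5%, 92.0% and 85.8%. BRG1 coverage at the summit differed from its highest value at any distance by between -0.943 and 1.42 points in that ranking, so the tallest BRG1 peaks showed no dip of the size seen for hemogen. Their median widths of 1964.5 and 1518 bp were close to the 2046 and 1875 bp of the tallest hemogen peaks. Their median background was 5.98 and 5.10, in scaled units where 1 fragment counts as 0.881 and 0.729 in BRG1 libraries 1 and 2.

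The strength of hemogen and of acetylation at the same place was compared by rank. Each hemogen summit inside an H3K27ac peak gave a pair of the authors' fold values, and Spearman's rank correlation was 0.214, 0.031, 0.040 and 0.220 over 11084, 8057, 10397 and 8509 pairs. Peaks are not independent replicates, and pairs of 1 library share its depth, so the rank correlation is given as a description. The same-numbered libraries stood at 0.214 and 0.220 and the other-numbered ones near 0. For 4458 loci present in all 4 lists the rank correlation was 0.313, -0.014, 0.004 and 0.208, in the same order, so the number pattern was also present over identical loci. BRG1 with H3K27ac gave 0.252 and 0.248 for the same number and 0.066 and 0.058 for different numbers.

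Fold has local background in its denominator, and the recovered background followed the library number. Over the same pairs the rank correlation of background was 0.707, 0.250, 0.250 and 0.699. Where the hemogen and H3K27ac summits lay within 20 bp of each other it was 0.948, 0.301, 0.292 and 0.951, over 1297, 988, 1177 and 1133 pairs. The labels do not state which input served each call. The rank correlation of height was 0.453, 0.378, 0.377 and 0.418, positive in all 4 pairs and with a gap of 0.058 between same and other numbers, against 0.181 for fold. The rank correlation of −log10 p was 0.246, 0.148, 0.145 and 0.199. Between the 2 hemogen libraries the rank correlation was 0.326 by fold and 0.759 by height, and between the 2 H3K27ac libraries 0.124 by fold and 0.633 by height. Between libraries of 1 antibody, which carry different numbers, ranks by fold thus agreed less than ranks by height. Both fold values were above the 0.031 and 0.040 of other-numbered hemogen and H3K27ac libraries. Only that of hemogen was above the same-numbered 0.214 and 0.220.

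**Figure D5:**
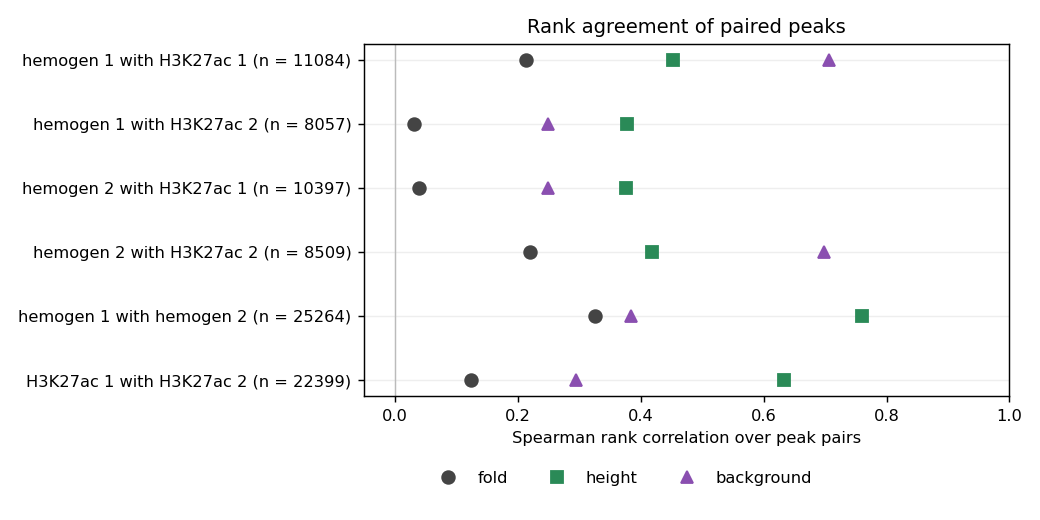
Spearman's rank correlation (x axis) of fold, height and local background over paired peaks, for the 4 pairs of hemogen and H3K27ac libraries and for libraries of 1 antibody (y axis, with the number of paired peaks). Across the 4 pairs of hemogen and H3K27ac libraries, fold and background are higher between libraries of the same number. Height is also higher there, with a smaller gap (0.453 and 0.418 against 0.378 and 0.377). The 2 hemogen libraries, of different number, reach 0.326 by fold.

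Chromosome X stood lowest of the 20 chromosomes in central acetylation in all 4 pairs. On it 12.9%, 7.097%, 11.2% and 9.47% of hemogen summits lay inside H3K27ac, of 944 peaks in hemogen 1 and 750 in hemogen 2. The H3K27ac lists held 410 and 236 peaks there, so chromosome X carried 1.83 to 4 hemogen peaks for each H3K27ac peak. Chromosomes 7, 11 and 17 held the highest ranks in every pair. On chromosome 7 the shares were 25.9%, 18.7%, 28.4% and 22.7%, and there were 0.532 to 0.948 hemogen peaks for each H3K27ac peak.

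Merging the hemogen peaks found in both libraries gave 25631 regions, of which 12890 (50.3%) had the same class in all 4 pairs. These were 2466 with an acetylated centre, 520 with acetylated flanks only, 2021 with acetylation on 1 side and 7883 with none within 1 kb. Their median strength, as the mean percentile of fold in both hemogen lists, was 72.8, 82.7, 63.4 and 55.8 in that order. The flanked class thus had the highest median strength. The 3 strongest regions of each class are described with the authors' fold values, in coordinates that fit the mouse build mm10. Each of the 12 also overlapped a BRG1 peak in both BRG1 libraries, as did 10845 (42.3%) of all 25631 regions, and the 12 were chosen for hemogen strength.

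The strongest region with an acetylated centre was chr4:87930062-87931870, with hemogen folds of 14.8 and 11.5 in libraries 1 and 2. Its summits, 57 bp apart, lay in H3K27ac peaks of fold 3.81 and 5.49. The next, chr5:121700973-121701964, had hemogen folds of 11.7 and 11.2 and H3K27ac folds of 3.43 and 5.36, with both hemogen summits within 1 bp. At chr11:94334293-94335039 hemogen reached 11.01 and 11.4 and H3K27ac 4.79 and 2.41. The H3K27ac medians over all peaks were 3.83 and 4.07 in lists 1 and 2. At the chromosome 4 and chromosome 5 regions the H3K27ac fold was below the median in list 1 and above it in list 2. At the chromosome 11 region it was the reverse. Between the 2 H3K27ac lists the rank correlation over all paired peaks was 0.124 by fold and 0.633 by height. The differing folds are therefore not shown to be particular to these regions.

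Among flanked regions chr8:123988117-123991169 had hemogen folds of 12.98 and 11.9. In H3K27ac list 1 the nearest edges lay 204 bp to the left and 98 bp to the right of the library 1 summit, and in list 2 they lay 446 and 74 bp away. The flanking peaks had folds of 5.85 and 5.12 in list 1 and of 3.61 and 5.91 in list 2. The hemogen summit here thus sat in a gap between acetylated peaks in both lists. At chr16:32507133-32510814 hemogen folds were 11.3 and 10.9, and the edges lay 140 and 496 bp away in list 1 and 250 and 448 bp away in list 2. At chr10:93141775-93145807 the folds were 10.6 and 13.2, with edges at 115 and 482 bp and at 345 and 122 bp. The 3 regions were 3053, 3682 and 4033 bp long. Of the 818 regions whose summits lay in a gap of at most 2 kb between H3K27ac peaks in both lists, the 3 strongest were the chromosome 8 and chromosome 16 regions and chr13:34331904-34334328, with hemogen folds of 13.9 and 10.9.

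Acetylation on 1 side only was seen at chr18:35618584-35620951, with hemogen folds of 13.2 and 13.1. The side differed between lists: the nearer edge was 695 bp to the left of the library 1 summit in list 1 and 625 bp to the right in list 2. At chr2:73091989-73093595 (folds 13.4 and 12.05) both lists had the acetylated peak on the left, at 461 and 484 bp, with the next on the right at 12267 and 12117 bp. At chr2:104098427-104100964 (folds 12.2 and 12.4) it lay 694 and 965 bp to the left. The last of these had right-hand edges at 1836 and 1887 bp, so a limit of 2 kb would class it as flanked.

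Strong hemogen with no peak of either H3K27ac library list within 1 kb of its summits was found at chr4:87803393-87808080, with folds of 14.3 and 11.2. The nearest H3K27ac peak of list 1 was 23509 bp from the library 1 summit, and that of list 2 was 10141 bp away. This region lay on the same chromosome as the strongest region with an acetylated centre, 121981 bp from it. At chr4:59532377-59534189 (folds 13.5 and 11.5) list 1 had no H3K27ac peak within 14918 bp, whereas list 2 had edges at 1650 and 1982 bp. At chr8:60971833-60975460 (folds 11.7 and 11.04) the nearest edges were 4272 and 9057 bp away, and the region overlapped no peak of the H3K27ac group list. Both chromosome 4 regions did overlap a peak of that longer list. Of all 7883 regions of this class, 1809 (22.9%) overlapped the H3K27ac group list. The share over all 25631 hemogen regions is not given here, so 22.9% cannot be read as low or high.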

How the data were processed

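Hemogen (HA), H3K27ac and BRG1 libraries of WT fetal liver were used, grouped by sample title. The labels describe fixation, sonication and precipitation, with tagmentation or a ligation kit. Per the submitters' processing notes, MACS2 2.2.7.1, Picard 2.21.4, SAMtools 1.9 and Bowtie2 2.3.5 were used, in roles not stated. The build, filters and inputs used were not given in the sources used here. The build mm10 is inferred from contig names and positions (chromosome 1 up to 195241899).

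The authors deposited 1 peak list per library and 1 per group, without headers. Each peak carries the authors' fold enrichment (a ratio), −log10 p-value and −log10 q-value, whose smallest value per list was 1.30 to 1.37. Library depth is not in the lists. Peaks off the autosomes and chromosome X (1 to 8 per library list) were left out.

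Overlap required 1 bp. Flank distances ran from the hemogen summit to the nearest H3K27ac edge, with a limit of 1000 bp. Coverage was read every 50 bp to 5 kb, and at 20 and 50 kb. Height and background were recovered by taking fold as height plus 1 over background plus 1, and p as an upper Poisson tail with heights in whole fragments times 1 scale per list. This held for 100% of peaks in the 6 library lists, within 0.001 of −log10 p, and rests on that assumed form of the call. Percent shares were compared over libraries, with exact permutation. Regions named are the 3 strongest of each class among merged hemogen peaks of both libraries with 1 class in all 4 pairs, and the 3 strongest in gaps of up to 2 kb in both H3K27ac lists. The scripts (SciPy 1.17.1, NumPy 2.4.6 and pandas 2.3.3 under Python 3.11.15) were tested on 962 simulated peaks against direct counting, with 0 differences.

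Alternatives were group lists, a minimum −log10 q of 5, lists trimmed to the shortest, joined H3K27ac peaks, peak midpoints, other overlaps and flank limits, rank by −log10 p, same-numbered libraries, and each library left out. Results on the strongest peaks, on height and on library number, and the trimming of hemogen and BRG1 lists alone, were chosen after seeing the data. The members, classes and comparisons were chosen with earlier results of these data known. Gene lists and promoters were not analysed here, since a mouse annotation was not used.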

Additional observations from a re-analysis of the deposited data

How the results depend on the processing

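The group lists gave 40.7% of hemogen peaks overlapping H3K27ac, 26.3% of H3K27ac peaks overlapping hemogen, 26.4% of summits inside H3K27ac, 10.5% with both flanks only and a summit coverage 0.694 points above the highest flank. For the strongest 1% by fold they gave 22.7% with both flanks only and 2.10 points in place of -5.68, a reversal whose cause was not tested. A minimum −log10 q of 5 gave 40.3% of H3K27ac peaks overlapping hemogen, and both-flank shares of 3.86% for all and 11.7% for the strongest 1%. Trimmed lists gave both-flank shares of 6.14% and 16.9%. An overlap of 50% of the shorter peak gave 28.9% of hemogen peaks. Flank limits of 500 and 2000 bp gave both-flank shares of 3.74% and 12.9% for all, and 10.4% and 34.5% for the strongest 1%. Peak midpoints gave 0.109 points for all and a both-flank share of 18.0% for the strongest 1%. With midpoints the difference between hemogen and BRG1 in the strongest 1% was -39.3 points, in place of -54.5. Over all settings other than leaving out a library, that difference ran from -63.6 to -39.3 points.

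Ranking by height gave a mean rank correlation of 0.407 in place of 0.126. The gap in rank correlation between same and other numbers was 0.181 by fold, 0.0759 by −log10 p and 0.0579 by height. For the strongest 1%, ranking by −log10 p gave -13.1 points and a both-flank share of 30.2%, ranking by height -18.9 points and 38.9%, and the strongest 5% by fold -0.484 points and a share of 17.0%.

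Leaving out 1 library gave 31.2 to 37.7% of hemogen peaks overlapping, 30.1 to 38.3% of H3K27ac peaks overlapping, 17.5 to 22.6% of summits inside and 6.58 to 8.66% with both flanks only. It gave 0.336 to 0.514 points of summit over flank for all and -6.40 to -4.95 for the strongest 1%, with a both-flank share of 18.9 to 21.9%. The rank correlation of fold was 0.123 to 0.130. The difference from BRG1 was -26.7 to -21.1 points, and -55.8 to -53.2 for the strongest 1%.

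With the replicate block, using same-numbered libraries only, the values were 34.8%, 34.8%, 20.4% and 7.58% for the 4 shares, 0.545 points, a rank correlation of 0.217, and -1.01 points and 19.7% for the strongest 1%. The difference from BRG1 was then -24.9 points, and -56.4 for the strongest 1% (exact sign-flip test, p = 0.5 for each, the smallest possible with 2 pairs). The labels do not say that a number marks a shared embryo or day, and the peak names inside the hemogen lists carry other numbers (3 and 4). The recovered local background went with the number, at a rank correlation of 0.707 and 0.699 for same-numbered libraries and 0.250 for the others.

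Counts of peaks set only the counting error of shares, over a whole list or over the 429 to 531 peaks of the strongest 1%. For the share of hemogen peaks overlapping H3K27ac the spread between library pairs was wider, and each antibody had only 2 libraries. The median summit held 17 to 25 fragments, so acetylation of low coverage could go uncalled, and a class without H3K27ac does not show that the mark was absent.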
